A study of Mus musculus with 8 samples.

Results

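The apical uptake machinery of the kidney's proximal tubule is described here through 10 genes: Lrp2, Cubn, Amn, Lrpap1, Dab2, Clcn5, Ocrl, Rab11a, Ehd1 and Fcgrt. Members were chosen by name, with earlier results of these data known. Each was read from the probe set that the platform annotation gives to it alone, or the one with the highest mean over the arrays where there were several. Of the 10 genes 9 had such a probe set and are among 19936 genes tested; Fcgrt, the neonatal Fc receptor gene, had none and gets no value. RNA of whole kidneys from female mice of a mixed C57BL/6 - SV127 background was hybridised to 8 Affymetrix arrays. Of these, 4 arrays are labelled mutant, with the genotype Pax8-rtTA;LC-1;Vhl-floxed, and 4 are labelled control littermates, whose alleles the labels do not spell out. In this system doxycycline switches on Cre from the LC-1 transgene where the Pax8 promoter drives rtTA, which directs recombination to tubule epithelium and leaves the Vhl gene of other kidney cells intact. Mice of both groups received doxycycline (0.2 mg/ml, in water with 5% sucrose) from week 3 of age over 2 weeks and normal water over the following 1 week, and kidneys were taken at 6 weeks of age.

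The proximal tubule takes back nearly all protein that passes the glomerular filter. Megalin (Lrp2) and cubilin (Cubn) capture albumin, vitamin carriers and hormones at the brush border, clathrin-coated pits carry them inward, endosomes are acidified so that ligands fall off, and the receptors return to the surface through recycling tubules. Loss of single components in people or mice gives low-molecular-weight proteinuria, as in Dent disease (CLCN5) and Lowe syndrome (OCRL).

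The direction of every comparison below rests on the labels, and the targeted gene went against them. Vhl read 8.25, 8.32, 8.46 and 8.33 on the arrays labelled mutant, against 8.01, 7.99, 7.96 and 8.22 on the arrays labelled control (log2 difference 0.29, limma adjusted p = 0.0387, and 0.0558 with the replicate number as a block). The call was lost in 6 of the 8 fits that left out an array, all but those without mutant array 1 or control array 4, and over all probe sets (adjusted p = 0.0714). The Vhl probe set was in any case not lower in the mutant-labelled arrays, although which part of the transcript it covers is not given in the sources used here. Egln3, a prolyl hydroxylase gene that hypoxia-inducible factor (HIF) switches on, averaged 8.82 ± 0.229 on mutant-labelled arrays and 11.8 ± 0.196 on control-labelled arrays (SD, n = 4 each). HIF accumulates when the von Hippel-Lindau protein is lost, so this difference also runs against the labels. Groups are named by their labels throughout, and no direction is a direction of Vhl loss.

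All values are the deposited log2 signals, and differences are mutant-labelled minus control-labelled arrays, tested with limma across all 19936 genes with Benjamini-Hochberg adjustment and called at an adjusted p under 0.05. Of the 9 measured uptake genes 1 was called, Clcn5, which was higher in the mutant-labelled arrays, 0 were called lower, and 8 were not called. At an unadjusted p under 0.05 Rab11a was lower as well, but the share of all genes at that threshold is not given here. Across all genes 7.23% were called, 2.59% higher and 4.64% lower. The median size of the difference, sign ignored, was 0.093 on the log2 scale for the 9 genes and 0.089 for all genes. The 95% intervals of the 9 differences all lay between -0.33 and 0.34, so a change beyond about 1.26-fold in either direction fell outside each of them. All 9 probe sets read above the upper quartile of every array (9.08 to 9.16) on all 8 arrays, well away from the floor of the scale where differences are compressed. SDs within a group ran from 0.036 to 0.163 in mutant-labelled arrays (median of all genes 0.101) and from 0.039 to 0.150 in control-labelled arrays (median of all genes 0.0914). The labels do not say whether other steps, such as hybridisation day, differed between arrays, and p-values measure the spread between these mice.

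**Figure D1:**
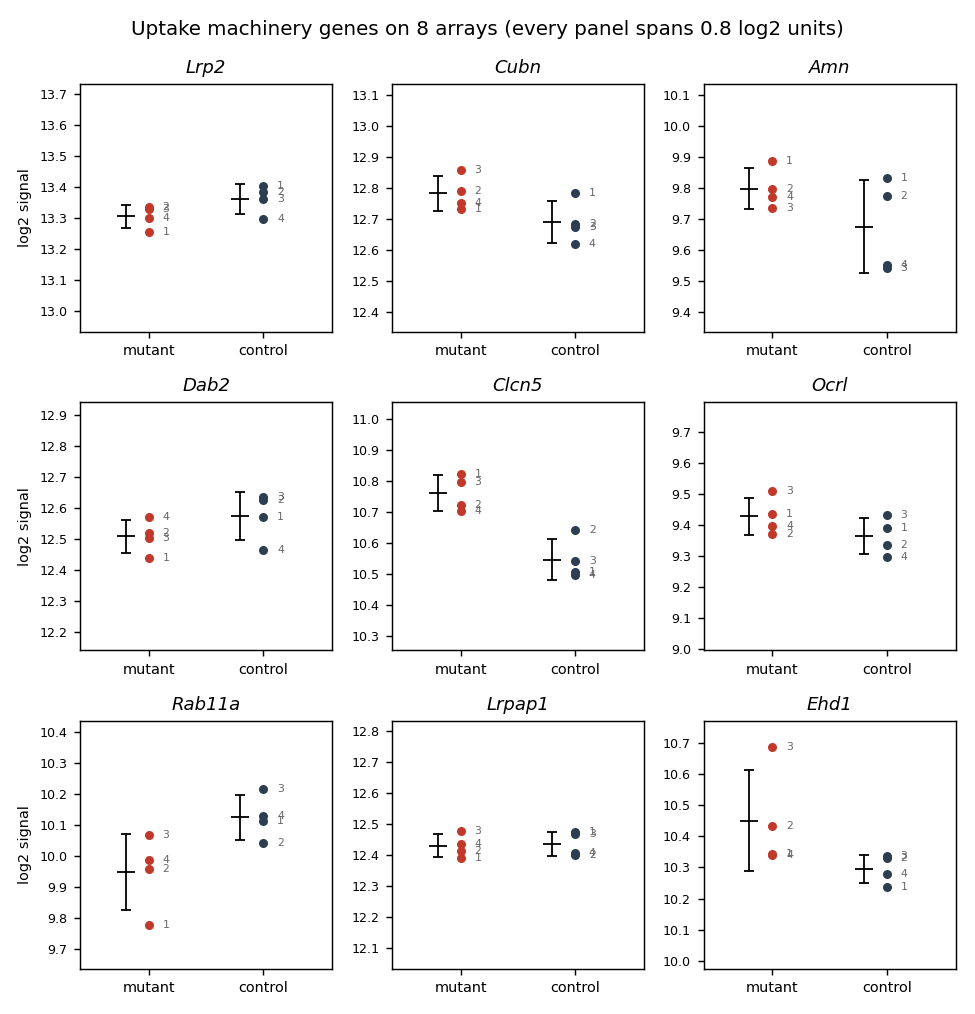
Log2 signal of the 9 measured uptake genes on each array, mutant-labelled arrays (red) left of control-labelled arrays (dark); small digits are replicate numbers, bars are mean and SD of 4 arrays, and every panel spans the same 0.8 log2 units. The groups are apart for 2 genes, Clcn5 and narrowly Ehd1, and overlap for the other 7. Groups were apart for 14.8% of all genes, in one direction or the other.

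The 3 receptor genes did not pass the test. Lrp2, the giant receptor of the LDL receptor family, read 13.26, 13.33, 13.33 and 13.30 on mutant-labelled arrays, against 13.40, 13.38, 13.36 and 13.30 on control-labelled arrays. The groups overlapped through control array 4, and the log2 difference was -0.06 (95% interval -0.17 to 0.05, limma adjusted p = 0.540). Cubn encodes cubilin, a large receptor with no membrane anchor of its own. It read 12.73, 12.79, 12.86 and 12.75 on mutant-labelled arrays, against 12.78, 12.68, 12.67 and 12.62 on control-labelled arrays. Control array 1 lay inside the mutant-labelled range while the other 3 control arrays lay below it (log2 difference 0.09, interval -0.03 to 0.22, limma adjusted p = 0.364). Amn encodes amnionless, the transmembrane partner that anchors cubilin. Its values were 9.89, 9.80, 9.74 and 9.77 on mutant-labelled arrays, against 9.83, 9.77, 9.54 and 9.55 on control-labelled arrays. Control arrays 3 and 4 were the low ones, and the spread among controls (SD 0.150) exceeded the log2 difference of 0.12 (interval -0.05 to 0.29, limma adjusted p = 0.390). Without control array 3 the difference was 0.078.

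The chaperone and the coat adaptor genes did not pass the test either. Lrpap1 encodes the receptor-associated protein, a chaperone that keeps megalin free of ligand in the endoplasmic reticulum. It averaged 12.4308 ± 0.0374 on mutant-labelled arrays and 12.4375 ± 0.0391 on control-labelled arrays (SD, n = 4 each), and had the smallest difference of the 9 genes, -0.01 (interval -0.11 to 0.10, limma adjusted p = 0.950). Dab2 encodes the adaptor that links the cytoplasmic tail of megalin to clathrin. Its probe set read 12.44, 12.52, 12.50 and 12.57 on mutant-labelled arrays, against 12.57, 12.63, 12.64 and 12.46 on control-labelled arrays. Control array 4 was as low as the mutant-labelled ones, and the log2 difference was -0.07 (interval -0.19 to 0.06, limma adjusted p = 0.538). A further probe set for Dab2, annotated by a single cDNA clone, averaged 9.32 ± 0.234 on mutant-labelled and 9.58 ± 0.211 on control-labelled arrays (SD, n = 4 each). It was not called either (log2 difference -0.26, limma adjusted p = 0.365 over all probe sets), and its wider interval reached -0.58. The signs of the Lrp2, Dab2 and Lrpap1 differences turned positive after quantile normalization (0.04, 0.01 and 0.06), so no direction is given for these 3.

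Clcn5, the endosomal chloride-proton exchanger that supports acidification, was the 1 called gene. It read 10.82, 10.72, 10.80 and 10.70 on mutant-labelled arrays, against 10.51, 10.64, 10.54 and 10.50 on control-labelled arrays. Every mutant-labelled array lay above every control-labelled array, as was so for 14.8% of all genes in one direction or the other. The rise was 1.16-fold (log2 difference 0.21, interval 0.09 to 0.34, limma adjusted p = 0.0458). The call rested close to the threshold: with the replicate number as a block the adjusted p was 0.0695, and it stayed below 0.05 in 1 of the 8 fits that left out an array, the one without control array 2 (range 0.0462 to 0.118). The log2 difference itself ran from 0.19 to 0.25 over all alternatives. Ocrl, a phosphatase gene that acts on phosphoinositides of endosomes, lies on the X chromosome like Clcn5. Its values were 9.43, 9.37, 9.51 and 9.40 on mutant-labelled arrays, against 9.39, 9.34, 9.43 and 9.30 on control-labelled arrays. The groups overlapped, with a log2 difference of 0.06 (interval -0.06 to 0.19, limma adjusted p = 0.523), which was 0.038 without mutant array 3.

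Windows upstream of annotated starts were read for Clcn5, the called gene, and for Lrp2 and Amn, receptor genes that were not called, because HIF binds a short core motif. The motif was searched as ACGTG or GCGTG on both strands, and bases of a match are in capitals in the 250 bases that precede each start, written 5′ to 3′ on the gene's strand (RefSeq, GRCm38.p6).
Clcn5 outer start, chrX:7319359-7319608, minus strand: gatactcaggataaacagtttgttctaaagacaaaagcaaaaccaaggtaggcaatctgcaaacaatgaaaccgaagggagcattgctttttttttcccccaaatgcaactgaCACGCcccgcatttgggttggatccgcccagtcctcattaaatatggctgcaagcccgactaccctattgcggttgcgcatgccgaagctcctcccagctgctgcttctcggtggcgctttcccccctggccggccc
Clcn5 inner start, chrX:7188715-7188964, minus strand: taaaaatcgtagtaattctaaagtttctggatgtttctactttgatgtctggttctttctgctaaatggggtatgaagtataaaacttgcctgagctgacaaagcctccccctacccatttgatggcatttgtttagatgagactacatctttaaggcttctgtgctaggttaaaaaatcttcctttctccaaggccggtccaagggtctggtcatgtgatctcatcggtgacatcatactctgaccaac
Lrp2, chr2:69586030-69586279, minus strand: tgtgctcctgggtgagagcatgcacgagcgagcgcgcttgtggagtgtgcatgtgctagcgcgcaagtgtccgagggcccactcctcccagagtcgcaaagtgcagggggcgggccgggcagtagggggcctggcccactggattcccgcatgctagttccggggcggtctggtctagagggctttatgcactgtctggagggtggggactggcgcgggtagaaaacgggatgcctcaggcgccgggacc
Amn, chr12:111270846-111271095, plus strand: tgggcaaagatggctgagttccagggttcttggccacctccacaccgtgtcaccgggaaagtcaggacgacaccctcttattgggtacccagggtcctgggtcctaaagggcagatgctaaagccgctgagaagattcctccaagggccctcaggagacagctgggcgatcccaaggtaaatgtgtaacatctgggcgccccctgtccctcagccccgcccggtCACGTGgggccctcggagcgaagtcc
Clcn5 has 2 annotated starts, and its outer window held 1 match, beginning 137 bases before the start, while the inner window held 0. The Lrp2 window held 0 matches. In the Amn window ACGTG matched on both strands at the same palindrome, beginning 26 and 25 bases before the start. Of 11 windows of the uptake genes 5 held at least 1 match, against 38.6% of 32851 windows of all genes in the table; Ehd1 has no window there. A match describes letters in a window and is not a binding site.

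**Figure D2:**
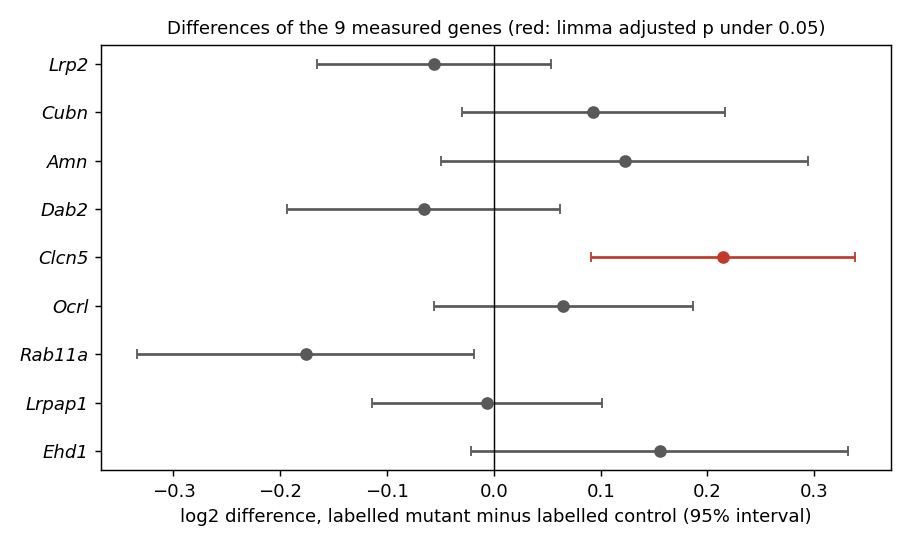
Log2 difference, mutant-labelled minus control-labelled arrays, with its limma 95% interval for the 9 measured uptake genes (4 arrays per group). Clcn5, in red, at 0.21, is the only one of the 9 called; the interval of Rab11a also lies beside 0 without a call, and the other 7 intervals include 0.

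Rab11a and Ehd1 act after ligand release, when receptors are returned to the apical membrane. Rab11a, the GTPase of recycling endosomes, read 9.78, 9.96, 10.07 and 9.99 on mutant-labelled arrays, against 10.11, 10.04, 10.22 and 10.13 on control-labelled arrays. Mutant array 1 was the lowest and mutant array 3 overlapped the controls. The log2 difference was -0.18 (interval -0.33 to -0.02), and it did not pass adjustment over all genes (limma adjusted p = 0.182). Ehd1 encodes an ATPase of the EHD family, which shapes and cuts the tubules of the recycling compartment. Its values were 10.34, 10.43, 10.69 and 10.34 on mutant-labelled arrays, against 10.24, 10.33, 10.34 and 10.28 on control-labelled arrays. The groups were apart by a narrow margin, and groups were apart for 14.8% of all genes. The log2 difference of 0.16 was not called (interval -0.02 to 0.33, limma adjusted p = 0.288). Mutant array 3 was the highest, and without it the difference was 0.077.

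The 3 relatives of Ehd1 fell. Ehd3 read 10.46, 10.63, 10.64 and 10.58 on mutant-labelled arrays, against 11.26, 11.07, 11.38 and 11.33 on control-labelled arrays. Ehd2, whose product sits at the necks of caveolae, read 9.08, 9.09, 9.37 and 9.33 on mutant-labelled arrays, against 9.66, 9.75, 9.86 and 9.64 on control-labelled arrays. Ehd4 averaged 9.51 ± 0.016 on mutant-labelled and 9.86 ± 0.132 on control-labelled arrays (SD, n = 4 each). These 3 genes fell 1.61-fold, 1.43-fold and 1.27-fold (limma adjusted p = 0.000793, 0.00547 and 0.0133), with no overlap between groups. On each array Ehd1 minus a relative was also taken, and its difference between groups was 0.84 log2 units for Ehd3, 0.67 for Ehd2 and 0.50 for Ehd4. Between arrays of equal number it ran from 0.55 to 1.09 for Ehd3, from 0.37 to 0.85 for Ehd2 and from 0.34 to 0.87 for Ehd4, positive in all 4 numbers. These gaps are given as sizes with no test, because the families were compared after their values were seen. In the mouse kidney Ehd3 is known from glomerular endothelium, and all 10 of 10 endothelial markers fell here (median log2 difference -0.67). The mean of those markers ran from 9.996 to 10.1 on mutant-labelled and from 10.6 to 10.8 on control-labelled arrays; their part in the EHD differences was not tested. In bulk tissue, fewer cells of a type and less RNA per cell cannot be told apart.

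**Figure D3:**
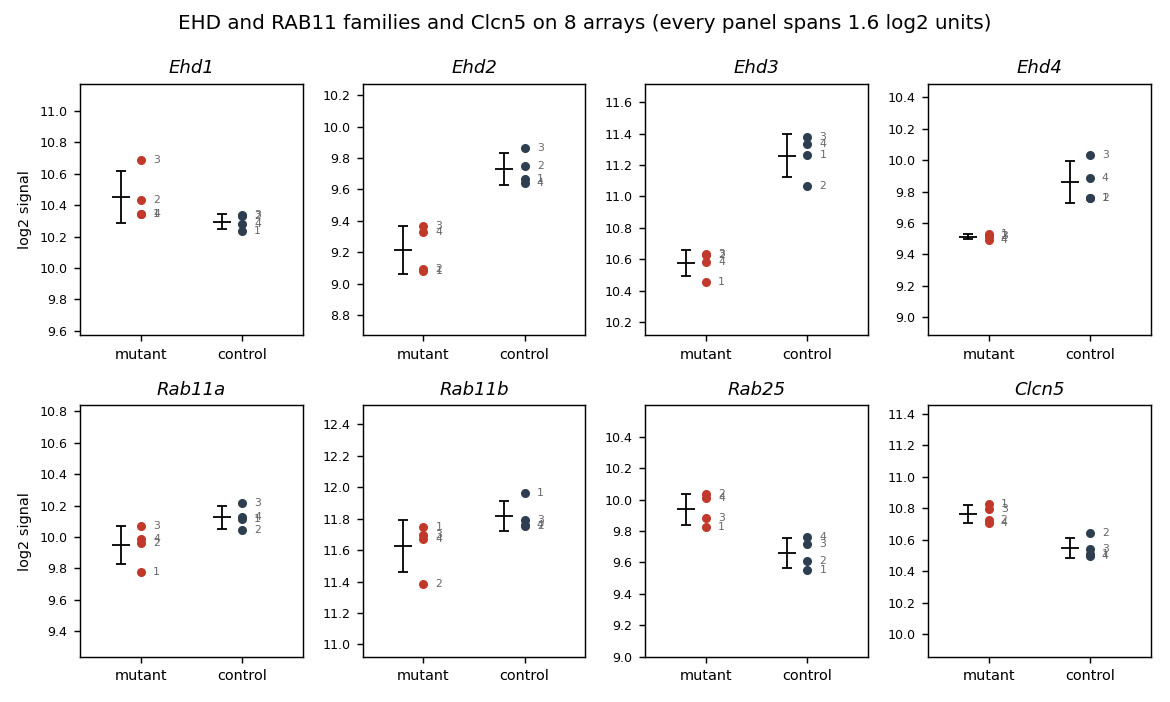
Log2 signal of the EHD family, the RAB11 family and Clcn5 on each array, mutant-labelled arrays (red) left of control-labelled arrays (dark); small digits are replicate numbers, bars are mean and SD of 4 arrays, and every panel spans 1.6 log2 units. Ehd2, Ehd3 and Ehd4 are lower and Rab25 higher in mutant-labelled arrays, while the Ehd1 and Rab11a differences did not pass the test.

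Within the RAB11 family Rab25 rose, while Rab11a and Rab11b had negative differences that were not called. Rab25, which epithelial cells express, averaged 9.94 ± 0.0996 on mutant-labelled and 9.66 ± 0.0958 on control-labelled arrays (SD, n = 4 each) and rose 1.21-fold (limma adjusted p = 0.0389). Its call was lost in 6 of the 8 fits that left out an array, all but those without mutant array 1 or control array 4. Rab11a minus Rab25 differed between groups by -0.46 log2 units (-0.61 to -0.31 between arrays of equal number). Rab11b had a log2 difference of -0.19 (limma adjusted p = 0.229, and -0.11 without mutant array 2), and Rab11a minus Rab11b differed by 0.02 (-0.12 to 0.29). For Clcn5 the closest relatives in the late endosome and lysosome list are the endosomal exchangers Clcn3 and Clcn4, at log2 differences of -0.05 and 0.03. Clcn5 minus Clcn4 differed by 0.19 (0.12 to 0.27 between arrays of equal number) and Clcn5 minus Clcn3 by 0.27 (0.11 to 0.47). Ocrl and its paralogue Inpp5b, at 0.06 and 0.10, had a gap of -0.04 (-0.16 to 0.10). All 8 pairs were chosen after their values were seen, so no test of them is reported. With 4 pairs of arrays, an exact two-sided test that pairs arrays by number could not go below 0.125.

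The remaining uptake pathway was read from 5 lists of 131 genes, 124 of them measured. Of the 124, 3 rose and 9 fell (2.42% and 7.26%, beside 2.59% and 4.64% of all genes), and their median log2 difference was -0.005, against 0.025 over all genes. Among 16 measured uptake receptors and ligands 3 fell and 1 rose. Tfrc, the transferrin receptor, and Scarb1, a lipoprotein receptor, fell 1.87-fold and 1.64-fold (limma adjusted p = 0.00279 and 0.000596), and their groups did not overlap. Vldlr, a close relative of megalin, fell 1.49-fold, and Lrp8 of the same family rose 1.27-fold with overlapping groups (limma adjusted p = 0.00156 and 0.0422, and 0.0636 for Lrp8 with the block). Lrp8 lost its call in 6 of the 8 fits that left out an array, all but those without mutant array 4 or control array 1. Folr1, the folate receptor of the brush border, averaged 12.2426 ± 0.0107 on mutant-labelled and 12.2028 ± 0.131 on control-labelled arrays, a log2 difference of 0.04 (interval -0.11 to 0.19, n = 4 each). B2m, the light chain that pairs with the product of Fcgrt, had a log2 difference of 0.09 (interval -0.14 to 0.32).

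Of 27 measured coat and adaptor genes 1 fell, Hip1, whose product binds clathrin and actin (1.33-fold, limma adjusted p = 0.00305). The 31 early and recycling endosome genes held 2 that rose, Rab25 and the RAB11 effector gene Rab11fip5 (1.18-fold, limma adjusted p = 0.0268), and the 3 EHD genes that fell. Rab11fip5 lost its call in 6 of the 8 fits that left out an array, all but those without mutant array 1 or control array 3. Of 20 phosphoinositide enzymes 1 fell, the kinase gene Pip4k2a (1.30-fold, limma adjusted p = 0.00793). Of 30 late endosome and lysosome genes 1 fell, Hexa, a subunit of beta-hexosaminidase (1.30-fold, limma adjusted p = 0.0241), and it lost its call in 6 of the 8 fits without an array, all but those without mutant array 1 or control array 4. Medians of these 4 lists lay between -0.05 and 0.01. Tfrc, Scarb1, Hip1, Ehd3, Ehd2, Pip4k2a and Hexa were named by size of change within their lists, and the other list genes were chosen after their values were seen.

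**Figure D4:**
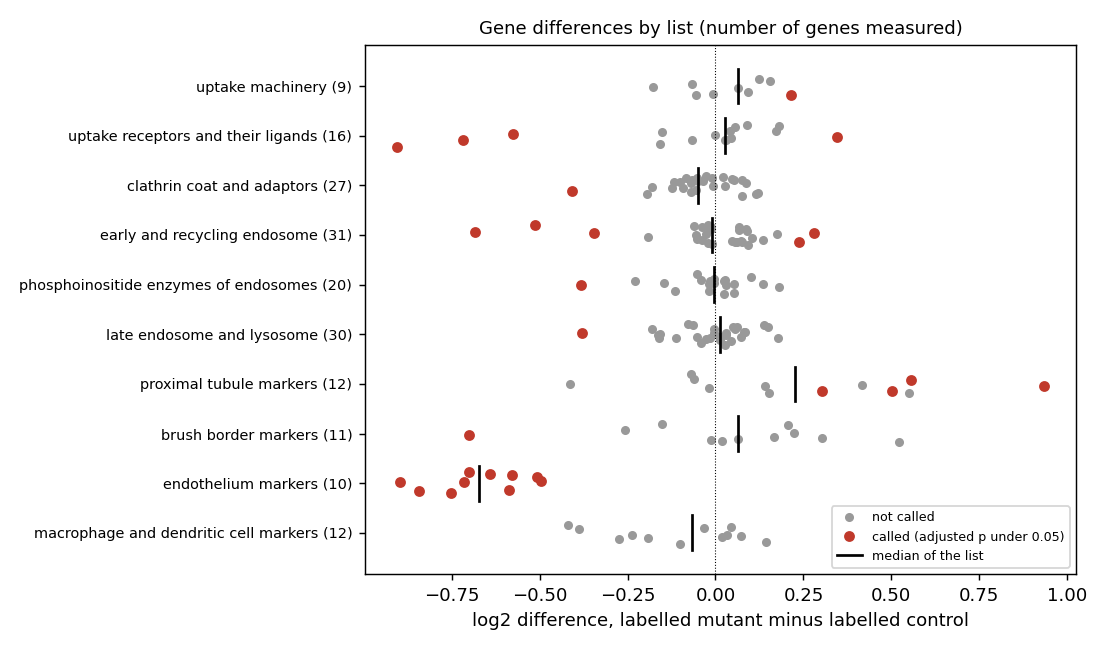
Log2 differences, mutant-labelled minus control-labelled arrays, of each measured gene in the uptake machinery, 5 pathway lists and 4 lists of cell type markers; red points were called at a limma adjusted p under 0.05 and black ticks are list medians. The uptake machinery and the 5 pathway lists centre near 0, the proximal tubule markers at 0.23 and the endothelial markers at -0.67. Thick ascending limb and distal markers (median 0.25) and collecting duct markers (median 0.23) are not drawn.

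Markers of the cells that hold the machinery were read on the same arrays. Of 12 proximal tubule markers 4 rose and 0 fell, where 2.59% of all genes were called higher and 4.64% lower. The median log2 difference of these markers was 0.23, beside 0.06 for the 9 uptake genes. The mean of those markers ran from 12.1 to 12.4 on mutant-labelled and from 11.8 to 12.1 on control-labelled arrays, so the labelled tissue held its defining transcripts on every array. Of 11 measured brush border genes 1 fell, Dpp4 (log2 difference -0.70), and 0 rose, and the median was 0.06. At an unadjusted limma p under 0.05, 5 brush border genes were higher and 3 lower, and 7 proximal tubule markers were higher and 0 lower. The share of all genes at that unadjusted threshold is not given here, for these or the lists below. Of 12 macrophage and dendritic cell markers 0 were called in limma, 2 were lower at an unadjusted p under 0.05, and the median was -0.07. Their mean was 8.35 on mutant array 1 and 8.20 on mutant array 2 but 7.799 and 7.794 on mutant arrays 3 and 4, with control-labelled arrays at 7.97 to 8.25. Of 6 podocyte markers 2 fell, Podxl (log2 difference -0.29) and Nes (-0.37). Nphs1 was higher at an unadjusted p only (log2 difference 0.17, limma adjusted p = 0.147). Wt1, Synpo and Ptpro, at 0.10, -0.17 and -0.01, were not called, so the podocyte markers did not move in 1 direction. Of 6 thick ascending limb and distal markers and 6 collecting duct markers 2 each rose. Median log2 differences of these lists were 0.25 and 0.23, so the proximal tubule median of 0.23 was not particular to that segment. At an unadjusted limma p under 0.05, 5 thick ascending limb and distal markers and 2 collecting duct markers were higher, and 0 lower. The part of all these markers in the uptake gene values was not tested.

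Arrays also differed within the groups. Deviations of Lrp2 and Cubn from their group means correlated over the 8 arrays at Pearson r = 0.844 (exact permutation p = 0.0330) and Spearman rho = 0.976 (exact p = 0.0139). Without the 2 arrays farthest from the median of Lrp2, r was 0.785. Among 4 pairs computed the adjusted p of r was 0.132, which misses the threshold. The p of rho was not adjusted over the pairs. The permutations reordered arrays within each group separately, although same-numbered arrays of the 2 groups deviated together. The other pairs were Lrp2 with Amn (r = 0.396, rho = 0.476), Cubn with Amn (r = 0.388, rho = 0.429) and Lrp2 with Dab2 (r = 0.670, rho = 0.238), with exact p of 0.481, 0.488 and 0.123 for r and 0.399, 0.455 and 0.611 for rho. Without the 2 farthest arrays r was 0.733, 0.266 and -0.826, so the sign for Lrp2 with Dab2 rests on those arrays. Of 9717 genes above the median level, the 3 whose deviations were most like those of Lrp2 were Pomt1 (r = 0.977), Rab11fip2 (r = 0.967) and Txndc5 (r = 0.967), given as a ranking with no test.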

How the data were processed

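Total RNA of whole kidneys was extracted with TRIzol, purified on RNeasy columns and labelled with biotin, per the labels' protocols. The authors' deposited table holds log2 values of 35556 probe sets on 8 arrays, from 1.92 to 14.66, with array medians of 7.55 to 7.58. The submitters' processing notes name limma; background correction, summarization, normalization and genome build are not given in the sources used here. Without scanner files no probe set could be called absent and no background method varied.

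Of the probe sets 21789 named 1 gene, 1621 several, and 12146 were unlisted. Symbols were updated through Entrez identifiers and accessions (21701 matched, 88 kept), which gave 19936 genes, each read from its probe set with the highest mean. limma 3.58.1 under R 4.3.3 gave the differences (1 factor, 8 arrays, two-sided). Simulated data for this comparison (19936 genes, 200 changed) gave 75% recovery of log2 changes of 0.5 and 98% of changes of 1. Of 180 calls 7 were false. The simulation changed fewer genes than the 7.23% called in the data, and its noise was independent between arrays. Its smaller change, 0.5, exceeded the largest of the 9 member differences (0.21), so recovery of changes of that size was not simulated. The number of arrays limits the precision: the median standard error was 0.0718 over all genes and 0.0554 over the 9 measured members.

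Members and lists were chosen with earlier results of these data known. Named list genes were the 2 called with the largest change, or the largest where none was called. Same-numbered arrays deviated together (r = 0.138, 0.153, 0.295 and 0.175, each above 0.1). Mutant array 2 and control array 1, of unequal number, were also above 0.1 (r = 0.111), so that threshold does not set equal numbers apart. Equal numbers were treated as pairs in the block alternative and in the gaps between arrays of equal number. That choice rests on these correlations and not on the labels, and the correlations do not settle it. The main fit has no block, so its p-values take the arrays as unpaired. The alternatives were quantile normalization, median centring, a filter to the brightest 60% of probe sets, a robust and trended eBayes, array weights, the block, averaging the probe sets of a gene, a fit over all probe sets, a threshold of 0.01, and each array left out. Fits without mutant arrays 1 and 2, or 3 and 4, were added after seeing the data.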

Additional observations from a re-analysis of the deposited data

How the results depend on the processing

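The count of uptake genes higher, 1, was 0 with array weights, with the replicate block, over all probe sets, at an adjusted p under 0.01, and with mutant arrays 1 and 2 removed or mutant arrays 3 and 4 removed, and ran from 0 to 1 with an array left out; the count lower was 0 under every alternative. At an unadjusted p under 0.05 the count was 2, Clcn5 and Rab11a, with no share of all genes at that threshold to set beside it. Clcn5 had adjusted p = 0.0529, 0.0695 and 0.0744 with weights, block and all probe sets (log2 difference 0.20, 0.21 and 0.21). The block changed no other call of an uptake gene.

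With an array left out, the log2 difference of Amn was 0.078 (without control array 3), of Ocrl 0.038 and of Ehd1 0.077 (both without mutant array 3), and without control array 4 Dab2 was -0.10. With mutant arrays 1 and 2 removed Rab11a was -0.096. Not-called genes changed sign in places: Lrp2 was 0.036, Dab2 0.014 and Lrpap1 0.060 after quantile normalization. Lrpap1 was 0.0059 without mutant array 1, 0.0055 without control array 1, 0.0035 without control array 3 and 0.021 with mutant arrays 1 and 2 removed, and over the fits with an array left out it ran from -0.023 to 0.0059. Clcn3 ran from -0.11 to 0.0080 (without mutant array 1) and was 0.076 with mutant arrays 1 and 2 removed.

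Of the pathway lists, 3 genes rose; the count was 5 after quantile normalization, 1 over all probe sets, 0 at an adjusted p under 0.01, 1 with mutant arrays 1 and 2 removed, 0 with mutant arrays 3 and 4 removed, and 0 to 2 with an array left out. The 9 that fell were 7 to 11 throughout. Ehd4 lost its call without mutant arrays 1 and 2 (adjusted p = 0.0672) and 3 and 4 (0.0590). Over 18 alternatives the gap of Ehd1 to Ehd2, Ehd3 and Ehd4 ran from 0.60 to 0.74, 0.78 to 0.91 and 0.42 to 0.57, that of Rab11a to Rab25 from -0.53 to -0.38, and those of Clcn5 to Clcn4 and Clcn3 from 0.16 to 0.21 and 0.13 to 0.41; Rab11a minus Rab11b (-0.068 to 0.11) and Ocrl minus Inpp5b (-0.098 to 0.021) changed sign. Calls over all genes numbered 1442, and 917, 903 and 902 without mutant array 2, control array 2 and control array 3, and 602 at an adjusted p under 0.01. In every case the cause was not tested.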
